A study of Mus musculus with 16 samples.

Results

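Translation initiation and elongation factors are the proteins that bring the ribosome to an mRNA, place it on the start codon and move it along the reading frame. Their genes were taken as the protein-coding rows whose symbol begins with Eif or Eef followed by a digit, without the Y-linked Eif2s3y. The rule gave 71 genes of 46320 in the table, of which 22173 are protein-coding. The RNA came from lumbar spinal motoneurons of E13 mouse embryos, enriched with an antibody against p75NTR and grown in microfluidic chambers in which axons pass into a compartment of their own. The 4 groups of 4 libraries each were the somatodendritic and the axonal compartment of +/+ (wildtype) and of Hnrnpr-/- motoneurons, the latter carrying a CRISPR/Cas9 deletion of the first exons of Hnrnpr in every cell of the animal. Both compartments of all groups received CNTF at 5 ng/ml, and BDNF at 20 ng/ml was given to the axonal side alone. Full volumes of the amplification kit were used for axonal RNA and reduced volumes for somatodendritic RNA, and axonal cDNA went through more PCR cycles, so BDNF, the reaction volume and the number of cycles cannot be told apart from the compartment.

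As background, initiation starts when eIF2, a trimer that binds GTP, delivers the initiator tRNA to the small ribosomal subunit, on which eIF3 forms a large scaffold. The eIF4F complex recruits the mRNA, with eIF4E on the cap, the helicase eIF4A and the scaffold eIF4G, while 4E-binding proteins compete with eIF4G for eIF4E. During elongation eEF1A brings the aminoacyl-tRNAs, the eEF1B subunits reload it with GTP, and eEF2 moves the ribosome by a codon. In growing axons this machinery makes proteins far from the cell body, and hnRNP R, the protein removed here, is an RNA-binding protein found in nuclei and in axons.

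The libraries held between 22024923 and 34864151 counts. Hnrnpr itself was at 120 to 422 CPM (counts scaled to a common library size with TMM factors) in the 8 +/+ libraries and at 0.545 to 1.16 CPM in the 8 Hnrnpr-/- libraries, as labelled. The check of the cell type was less clear: the defining factor Mnx1 was at 0 in all but 1 library, Isl1 was at 3.89 to 8.03 CPM and Chat at 0.657 to 1.31 CPM in somatodendritic libraries. The sum of the 10 motoneuron markers was 1108 to 2108 CPM in +/+ and 1225 to 2120 CPM in Hnrnpr-/- somatodendritic libraries, against 100 to 449 CPM and 43.8 to 1139 CPM in the axonal ones, and 5 of the 8 that could be tested were lower in +/+ axonal libraries. For comparison with this and the next counts, 30.1% of all genes tested were higher and 27.4% lower in +/+ axonal libraries. In Hnrnpr-/- these shares were 27.5% and 26.8%. The sum of 8 fibroblast or pericyte markers was higher in axonal libraries, from 76.8 to 716 CPM up to 1065 to 10260 CPM in +/+ and from 124 to 1324 CPM up to 1952 to 9390 CPM in Hnrnpr-/-, with 2 of 8, Acta2 and Pdgfrb, passing the test in each genotype and log2 fold changes above 0 for 8 of 8 in +/+ and 5 of 8 in Hnrnpr-/-. The 2 of 8 that passed lie below the share of all genes that were higher. The sum of 7 astrocyte or radial glia markers was 981 to 1379 CPM in +/+ somatodendritic and 1973 to 4755 CPM in +/+ axonal libraries, with 4 of 7 higher, and 916 to 2030 CPM against 1909 to 3809 CPM in Hnrnpr-/-, with 2 of 7 higher. In each genotype 1 of 6 oligodendroglia or Schwann cell markers and 1 of 7 microglia markers were higher in axonal libraries, with sums that overlapped between the compartments. Both counts lie below the share of all genes that were higher. Of 2 endothelial markers tested 1 was lower in +/+ and 2 in Hnrnpr-/- axonal libraries, where the sum of 3 was at most 1.06 CPM, against 0.994 to 3.56 CPM and 2.94 to 15.96 CPM in the somatodendritic ones. Of 4 RNAs known to stay in nuclei, Malat1, Neat1 and Kcnq1ot1 were higher and Meg3 lower in +/+ axonal libraries, with a sum of 507 to 2454 CPM against 633 to 854 CPM in the somatodendritic ones. In Hnrnpr-/- Neat1 was higher and Meg3 lower, with sums of 589 to 797 CPM and 647 to 1078 CPM. In such bulk libraries fewer cells of a type and less RNA per cell cannot be told apart. The compartment differences below stand beside these marker and nuclear RNA levels, and the part of other cells or of nuclei in them was not tested.

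Many mRNAs of the translation machinery are known TOP mRNAs, which begin with a C followed by an uninterrupted run of pyrimidines at the cap and are translated under the control of mTOR. The windows below show the stretch around the annotated start of 5 genes that the results turn on and of Eef2 (GRCm39, GENCODE canonical transcripts, 15 bases before and 15 from the start on, read on the strand of the gene). Capitals mark a C within 5 bases of the start that is followed by at least 5 further C or T.
Eef1a1, chr9:78388992-78389021, minus strand: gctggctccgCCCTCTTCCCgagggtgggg
Eef1g, chr19:8944390-8944419, plus strand: ccccacccctcgCTTTTTCCaactcagcgg
Eif3f, chr7:108533606-108533635, plus strand: ttctgttctaggCTCTCTCTCTTTCTCggc
Eif3k, chr7:28681285-28681314, minus strand: tggtgctgaaagcgCCTTTCCCTTTgcctt
Eif2s3x, chrX:93256301-93256330, minus strand: ccgccttcccgccgCTTCCCCTTCgctccg
Eef2, chr10:81012450-81012479, plus strand: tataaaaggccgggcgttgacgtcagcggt
Eef1a1, Eef1g and Eif3f are textbook TOP mRNAs, Eif3k and Eif2s3x are not on that list but carry runs of 11 and 10 bases, and the window of Eef2, also a TOP mRNA, holds no such run at the annotated start. The run stood in 14 of 66 windows of the factors (21.2%), in 3 of the 9 textbook TOP mRNAs, and in 11.4% of the windows of all 14744 protein-coding genes tested that had one. A missing run says only that these letters are not within this window.

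Of the 71 factors, 68 were abundant enough to test. Eif4e1b, an eIF4E paralogue known from oocytes, had no count in any library, and Eif4a3l1 and Eif1-ps3 reached at most 8.92 and 2.1 counts. In +/+ motoneurons 34 of the 68 were higher and 11 were lower in axonal than in somatodendritic libraries with an adjusted p below 0.05 (edgeR quasi-likelihood test, adjusted over all 19964 genes tested). Over all genes 57.5% passed the test, with 30.1% higher and 27.4% lower, and for 52.4% the 4 axonal and 4 somatodendritic libraries did not overlap (51.4% in Hnrnpr-/-), against 42 and 43 of the 68 factors. The factors leaned to the axonal side, with 50% higher and 16.2% lower. Their median log2 fold change was 0.46, against 0.07 for all genes tested. In Hnrnpr-/- motoneurons 33 were higher and 10 lower, against 27.5% and 26.8% of all genes (54.2% in both directions), and the medians were 0.44 and 0.00. The direction was shared by 62 of the 68 factors in both genotypes, and 29 were called higher and 9 lower in each. No such share over all genes was computed, and 57.5% and 54.2% of them were called, so this sharing is not shown to be particular to the factors. The interaction of genotype and compartment was called for 0 factors (0 also at an unadjusted p below 0.05 with edgeR, against 1.33% of all genes, and 0 adjusted with DESeq2). Without axonal replicate 3 of both genotypes, the libraries with the lowest motoneuron marker sums, 31 factors were higher and 12 lower in +/+, and 31 and 10 in Hnrnpr-/-. For 20 of the 71 factors the gene extent overlaps a gene on the opposite strand, and since the kit does not mark strand, reads of the overlap cannot be assigned and the values of these factors are uncertain. The other gene held 18.9% as many counts as Eif5a (Gps2), 19.6% as many as Eif4a2 (Rfc4), 14.2% for Eif4enif1 (Sfi1), 14.0% for Eif3j2 (Gm3650), 13.2% for Eif2d (Rassf5) and 9.65% for Eif2ak2 (Gm26637), and between 0.0239% and 6.73% for Eif4e2, Eif5a2, Eef2k, Eif3m and Eif4g3. The others, with more, are pointed out where they are described.

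**Figure D1:**
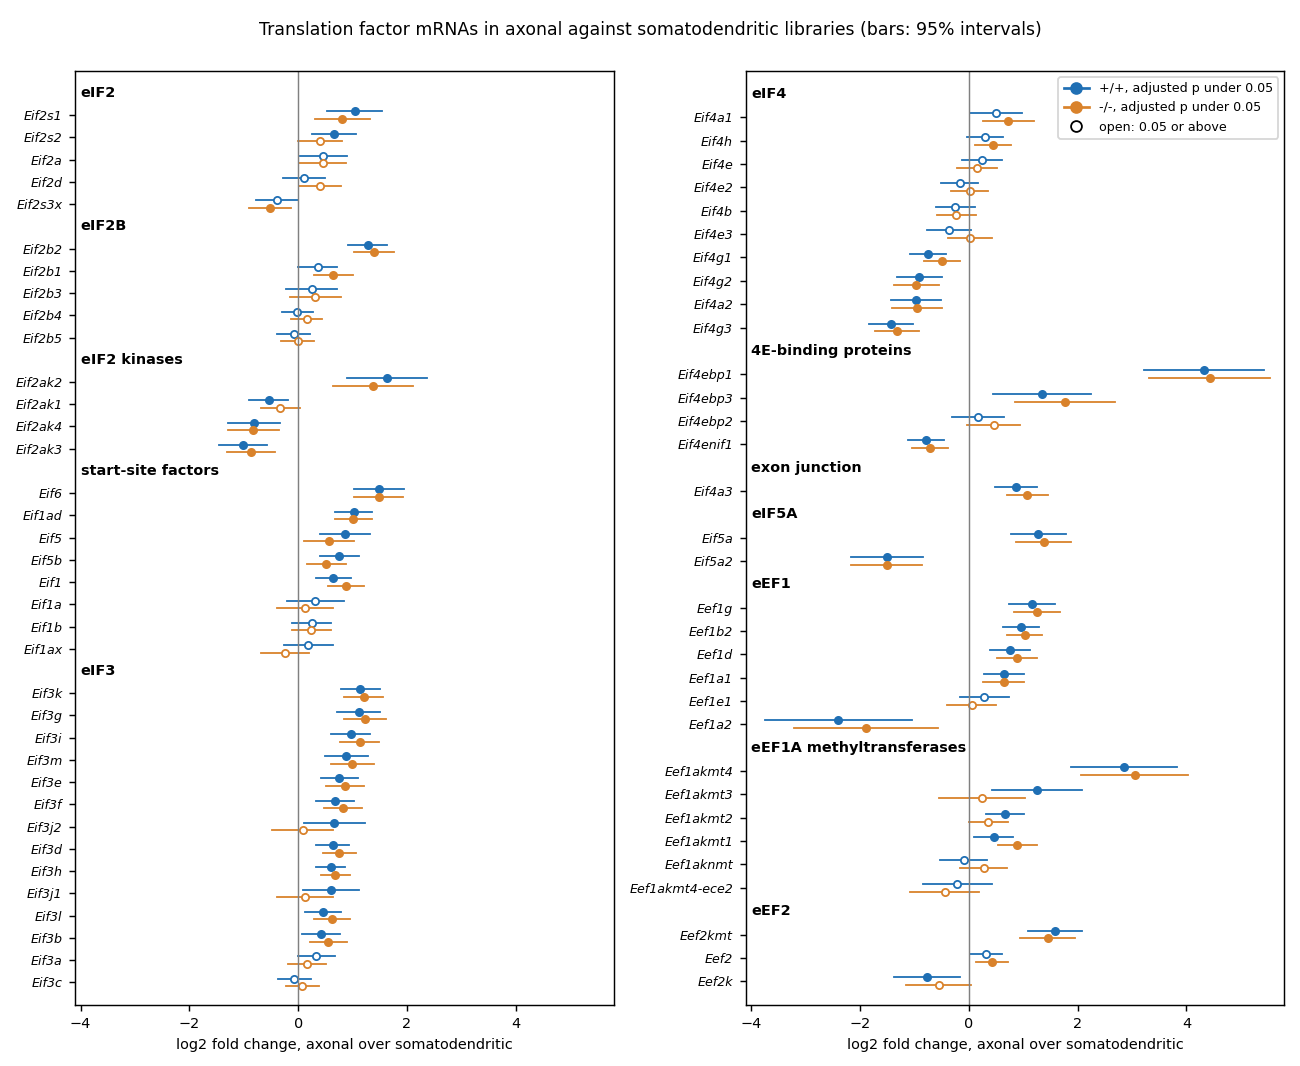
Log2 fold change of each of the 68 tested factors between axonal and somatodendritic libraries (x axis), grouped by role, in +/+ (blue) and Hnrnpr-/- (orange) motoneurons with 95% intervals. Filled points pass the adjusted test. Most eIF3 and eEF1 genes lie to the right of 0, the 3 eIF4G genes to the left, and Eif4ebp1 farthest right at 4.31 and 4.43.

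The mRNAs of eIF3 were higher in axonal libraries nearly throughout: 12 of 14 rose in +/+ and 10 of 14 in Hnrnpr-/-, and none fell. Over all genes 30.1% rose and 27.4% fell in +/+, and 27.5% and 26.8% in Hnrnpr-/-. Eif3k, a small subunit at the edge of the complex, was at 38.7, 36.7, 35.7 and 36.6 CPM in the +/+ somatodendritic and at 73.4, 72.4, 110 and 69.4 CPM in the +/+ axonal libraries. No axonal library came near the somatodendritic range, and the log2 fold change was 1.14 ± 0.17 (SE, adjusted p = 0.000101). Eif3g, which contacts the mRNA on the ribosome, rose by 1.11 ± 0.18 (adjusted p = 0.000222) and Eif3i by 0.96 ± 0.17 (adjusted p = 0.000317). The increases of Eif3m, Eif3e, Eif3f, Eif3d, Eif3h and Eif3l ran from 0.88 down to 0.46. Eif3a and Eif3c, which encode the large core subunits, did not pass: Eif3a was at 0.33 ± 0.16 and Eif3c at -0.07 ± 0.14, with Eif3c at 267, 275, 272 and 276 CPM in +/+ somatodendritic and at 257, 201, 293 and 285 CPM in +/+ axonal libraries. These ranges overlapped, as did those of Hnrnpr-/- (256 to 296 against 245 to 345 CPM).

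3 of the eIF3 calls were fragile. Eif3b, the platform subunit that binds eIF3i and eIF3g, rose by 0.42 ± 0.16 (adjusted p = 0.0387), but its adjusted p was 0.0774 with the culture as a block, 0.0723 with no filter on low counts and 0.0535 without axonal replicate 3 of both genotypes, and it missed the threshold in 8 of 16 fits that each left out 1 library (adjusted p from 0.0519 to 0.0778), namely +/+ axonal replicates 1, 3 and 4, +/+ somatodendritic replicates 1 and 3, Hnrnpr-/- axonal replicate 2 and Hnrnpr-/- somatodendritic replicates 3 and 4. Eif3j1 and Eif3j2 are near-identical copies of the loosely bound eIF3j subunit whose reads the counting could split, and the gene extent of Eif3j1 overlaps Spg11 on the opposite strand. Both depended most on +/+ axonal replicate 2, in which Eif3j1 was at 80.4 CPM against 36, 43.1 and 59.5 CPM in the other axonal libraries. Without it their log2 fold changes dropped from 0.60 to 0.35 (adjusted p = 0.19) and from 0.66 to 0.36 (adjusted p = 0.191), and in Hnrnpr-/- they were 0.12 and 0.08. Eif3j1 also missed the threshold without +/+ axonal replicate 4, +/+ somatodendritic replicates 1 or 2, Hnrnpr-/- axonal replicates 2 or 4 or Hnrnpr-/- somatodendritic replicates 3 or 4 (adjusted p from 0.0518 to 0.104), and Eif3j2 in the same fits other than that without Hnrnpr-/- axonal replicate 4 (0.0514 to 0.0959). With no filter the adjusted p-values of Eif3j1 and Eif3j2 were 0.0576 and 0.0529, with only the compared groups fitted 0.0778 and 0.0810, and Eif3j1 also missed the threshold with DESeq2 (0.0531).

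Per kb of exon, a scale that allows levels of different genes to be compared, the summed eIF3 level was 802 ± 50.7 CPM per kb (SD, n = 4) in +/+ somatodendritic and 1255 ± 162 in +/+ axonal libraries, and 782 ± 55.2 and 1304 ± 206 in Hnrnpr-/-. The lowest axonal library of both genotypes, at 1113, lay above the highest somatodendritic one, at 871. Eif3l, at 97.4 CPM per kb, was the highest subunit in +/+ somatodendritic libraries and Eif3g, at 149 CPM per kb, in +/+ axonal ones, while Eif3j2 was the lowest in all groups. Eif3c made up 11.8% ± 0.60 (SD, n = 4) of the eIF3 level in +/+ somatodendritic and 7.17% ± 0.89 in +/+ axonal libraries.

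**Figure D2:**
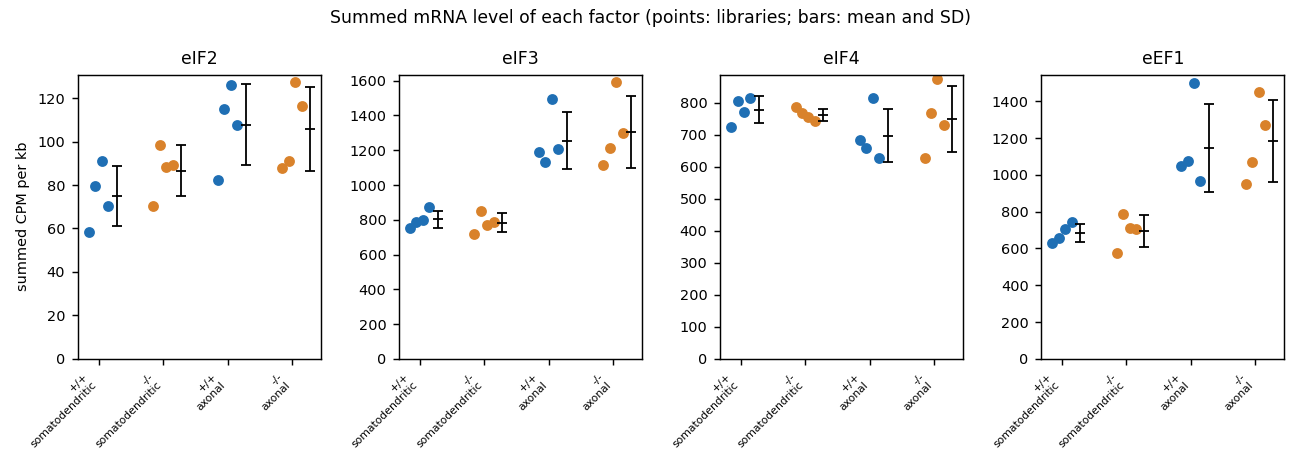
Summed level (CPM per kb of exon, y axis from 0) of the eIF2, eIF3, eIF4 and eEF1 genes in each library, by group. Points are libraries and bars the mean and SD of 4. The axonal groups lie above the somatodendritic ones for eIF3 and eEF1, and the eIF4 groups overlap.

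Of the 6 eEF1 genes, 4 rose and 1 fell in both genotypes, against 30.1% and 27.4% of all genes in +/+ and 27.5% and 26.8% in Hnrnpr-/-. Eef1a1, which encodes the tRNA-carrying eEF1A of most cells and was the most abundant member per kb in all groups, was at 830, 877, 936 and 983 CPM in +/+ somatodendritic and 1316, 1375, 1827 and 1141 CPM in +/+ axonal libraries. The groups did not overlap, and the log2 fold change was 0.64 ± 0.17 (SE, adjusted p = 0.00599) in +/+ and 0.64 ± 0.17 (adjusted p = 0.00655) in Hnrnpr-/-. Among the subunits of the exchange factor eEF1B, Eef1g rose by 1.16 ± 0.20, Eef1b2 by 0.96 ± 0.15 and Eef1d by 0.76 ± 0.17 in +/+, with adjusted p between 0.000197 and 0.00207. Eef1e1, which belongs to the aminoacyl-tRNA synthetase complex, was at 0.28 ± 0.21 and not called. The sum of 5 eEF1 genes was 684 ± 48.9 CPM per kb (SD, n = 4) in +/+ somatodendritic and 1146 ± 240 in +/+ axonal libraries, and 694 ± 88.9 and 1184 ± 221 in Hnrnpr-/-.

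The gene that fell was Eef1a2, the eEF1A paralogue of mature neurons and muscle. Its level was 42.1, 49.3, 43.9 and 49.3 CPM in +/+ somatodendritic libraries and 12.2, 9.9, 3.25 and 9.67 CPM in +/+ axonal ones. In Hnrnpr-/- the values were 39.5, 37.5, 37.5 and 35.1 CPM and 26, 9.26, 1.26 and 3.81 CPM. All axonal libraries lay below all somatodendritic ones, the log2 fold change was -2.40 ± 0.63 (SE, adjusted p = 0.00505) in +/+ and -1.89 ± 0.62 (adjusted p = 0.0188) in Hnrnpr-/-, and the latter call was lost without Hnrnpr-/- axonal replicate 4 (-1.62, adjusted p = 0.0538) and with only the compared groups fitted (-1.83, adjusted p = 0.0643). The 2 lowest values came from axonal replicate 3 of the 2 genotypes, which also had the lowest motoneuron marker sums, 100 and 43.8 CPM.

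The paralogues of 3 other factors divided in the same direction. Each pair was compared as a log2 ratio within a library, with 0.5 CPM added to both genes, which pulls the ratio towards 0 where a gene is low, as Eef1a2 is in axons, and with an exact permutation test whose smallest possible p for 4 against 4 libraries is 0.0286. The ratio of Eef1a1 to Eef1a2 was larger in axonal libraries by 3.09 (log2) in +/+ and 3.14 in Hnrnpr-/-. That of Eif5a to Eif5a2, the 2 genes of the hypusine-bearing factor eIF5A, was larger by 2.72 and 2.88. For Eif4a1 and Eif4a2, the 2 eIF4A helicases, it was 1.43 and 1.69, and for the scaffolds Eif4g1 and Eif4g3 it was 0.68 and 0.82. In all 8 comparisons the 4 axonal libraries lay above the 4 somatodendritic ones (two-sided exact permutation p = 0.0286 each), but after adjustment over the 24 ratio comparisons made the value was 0.0857, so none passed. The 8 were already at the smallest possible p, so the adjusted value follows from the size of the test and does not weigh these ratios. The ratios of Eif4e to Eif4e2 (differences of 0.41 and 0.13, exact p = 0.114 and 0.257) and of Eif1a to Eif1ax (0.14 and 0.34, exact p = 0.743 and 0.229) overlapped between the compartments. Between genotypes no ratio differed within a compartment (exact p from 0.114 to 0.943).

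**Figure D3:**
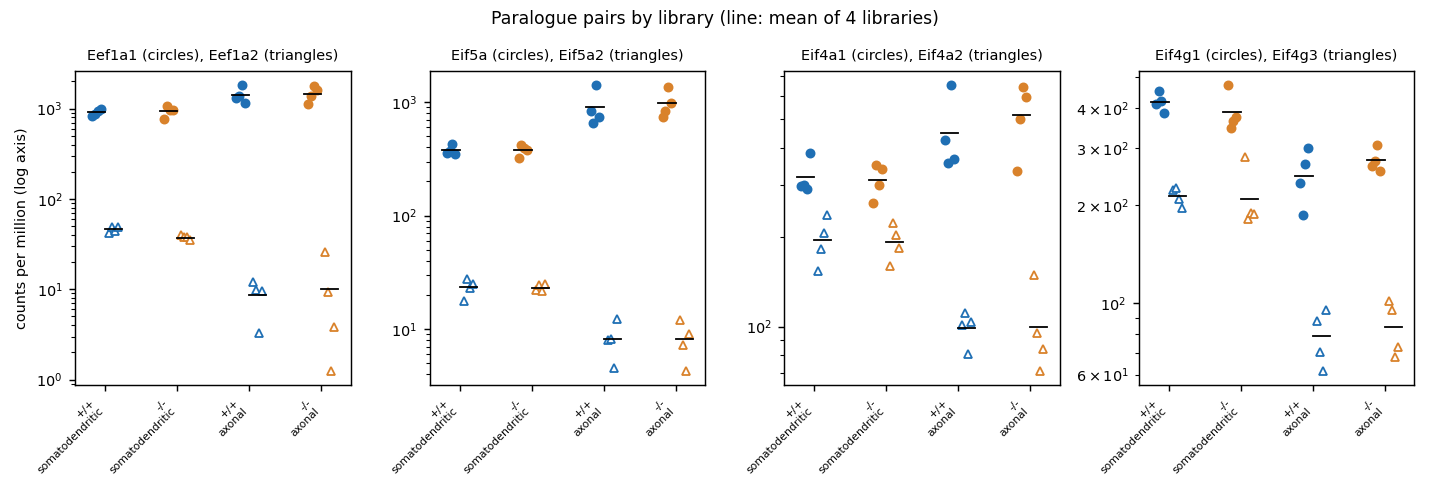
Level in CPM (log axis) of 4 paralogue pairs in every library of the 4 groups, with circles and filled symbols for the first and open triangles for the second gene of a pair, blue for +/+ and orange for Hnrnpr-/-. Eef1a2, Eif5a2, Eif4a2 and Eif4g3 (triangles) are lower in axonal libraries, while Eef1a1 and Eif5a are higher.

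Within these pairs, Eif5a was at 353, 374, 427 and 350 CPM in +/+ somatodendritic and at 828, 662, 1418 and 739 CPM in +/+ axonal libraries. It rose by 1.28 ± 0.24 (SE, adjusted p = 0.000475). Eif5a2 went from 17.8, 27.5, 23.1 and 25.2 CPM to 7.97, 8.17, 4.55 and 12.3 CPM and was 2.84-fold lower (log2 SE 0.31, adjusted p = 0.000943). Neither gene's groups overlapped, and in Hnrnpr-/- the log2 fold changes were 1.37 and -1.51.

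Of the 10 eIF4 factors tested, 0 rose and 4 fell in +/+, against 30.1% and 27.4% of all genes, and 2 rose and 4 fell in Hnrnpr-/-, against 27.5% and 26.8%. The 0 that rose in +/+ lie below the share over all genes, but 10 genes are few and the difference was not tested. The eIF4 counts were not tested against those of eIF3 or eEF1. The 4 that fell were the same in both genotypes, namely Eif4g1, Eif4g2, Eif4g3 and Eif4a2. Eif4g1, the main scaffold of eIF4F, was at 412, 450, 422 and 386 CPM in +/+ somatodendritic and at 235, 186, 268 and 300 CPM in +/+ axonal libraries. The groups did not overlap, and it fell by 0.76 on the log2 scale (SE 0.15, adjusted p = 0.00094). In Hnrnpr-/- it was at 472, 348, 365 and 374 CPM and at 265, 274, 308 and 256 CPM. It fell by 0.50 (SE 0.15, adjusted p = 0.0131), a call that was lost without Hnrnpr-/- somatodendritic replicate 1 (-0.35, adjusted p = 0.0845). The interaction for Eif4g1 was 0.26 ± 0.22 (unadjusted p = 0.254, edgeR).

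Eif4g2, whose product lacks the eIF4E site and supports cap-independent initiation, was at 1720, 2176, 2023 and 1934 CPM in +/+ somatodendritic and at 949, 1502, 738 and 985 CPM in +/+ axonal libraries, and fell by 0.91 (SE 0.20, adjusted p = 0.00131). Eif4g3, the second full-length scaffold, went from 223, 226, 209 and 196 CPM to 88.1, 70.7, 61.7 and 94.8 CPM and fell by 1.44 (SE 0.19, adjusted p = 5.57e-05). The summed level of the 3 scaffold mRNAs was 349 ± 28.1 CPM per kb (SD, n = 4) in +/+ somatodendritic and 187 ± 35.7 in +/+ axonal libraries, and 335 ± 45.6 and 183 ± 19.8 in Hnrnpr-/-. In neither genotype did the compartments overlap.

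Among the other eIF4F parts, Eif4a2 was called lower as the scaffolds were, and no further part was. Eif4e, the cap-binding subunit, was at 190, 226, 251 and 233 CPM in +/+ somatodendritic and at 238, 342, 275 and 204 CPM in +/+ axonal libraries, overlapping ranges with a log2 fold change of 0.24 ± 0.17 (adjusted p = 0.254). Eif4a1, the more abundant helicase, was at 0.50 ± 0.22 (adjusted p = 0.0674) in +/+ and rose by 0.73 ± 0.22 (adjusted p = 0.0129) in Hnrnpr-/-, while Eif4a2 fell by 0.98 (SE 0.22) and 0.95 (SE 0.22). The cap-binding paralogues Eif4e2 and Eif4e3 were not called, but Eif4e2 was called lower in +/+ without axonal replicate 3 of both genotypes (-0.35, adjusted p = 0.0181, against -0.17 and 0.374 with all libraries). Eif4e3, whose gene extent overlaps that of the more abundant Gpr27 on the opposite strand and which is therefore uncertain, at 10.0 to 12.6 CPM in +/+ somatodendritic and 8.07 to 9.63 CPM in +/+ axonal libraries, was at -0.36 ± 0.19 (adjusted p = 0.116). Of the helicase cofactors, Eif4b was at -0.25 ± 0.17 and -0.23 ± 0.17 and Eif4h at 0.30 ± 0.16 and 0.45 ± 0.16. Eif4h passed the test in Hnrnpr-/- (adjusted p = 0.0247, or 0.0574 with the culture as a block), but not without Hnrnpr-/- axonal replicates 2 or 3 or somatodendritic replicate 3 (adjusted p from 0.0603 to 0.0648), nor without axonal replicate 3 of both genotypes (0.0519). The sum of 8 eIF4 genes was 779 ± 41.6 and 697 ± 82.8 CPM per kb in the +/+ and 763 ± 18.7 and 750 ± 103 in the Hnrnpr-/- somatodendritic and axonal libraries, with overlapping ranges. The leading gene changed from Eif4g2, 32.5% of the sum in +/+ somatodendritic libraries, to Eif4a1, 33.8% in +/+ axonal ones.

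The most marked difference among all factors was that of Eif4ebp1, which encodes 4E-BP1, the mTOR-regulated repressor that binds eIF4E in place of eIF4G. It was at 4.89, 2.12, 6.13 and 4.41 CPM in +/+ somatodendritic and at 44.3, 57.8, 152 and 96.1 CPM in +/+ axonal libraries. In Hnrnpr-/- it was at 3.62, 3.2, 5.91 and 4.55 CPM and at 46.1, 47, 155 and 124 CPM. Every axonal library lay far above every somatodendritic one, and the difference was 19.9-fold in +/+ (log2 4.31 ± 0.52, adjusted p = 3.28e-05) and 21.5-fold in Hnrnpr-/- (log2 4.43 ± 0.52, adjusted p = 3.91e-05). Replicate 3 was the highest axonal library in both genotypes. Without it in both, the log2 fold changes were 3.88 and 4.08.

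Per kb, Eif4ebp1 mRNA stood at a median of 0.226 of the Eif4e level in +/+ somatodendritic libraries (0.0978 to 0.269) and at 3.42 in +/+ axonal ones (1.76 to 5.76). The same ratios were 0.201 and 3.68 in Hnrnpr-/-. They rest on division by all annotated exons, 981 bp for Eif4ebp1 and 10231 bp for Eif4e, which understates Eif4e if its long isoforms are rare. In CPM, without that division, Eif4e lay above Eif4ebp1 in every axonal library of both genotypes. Eif4ebp2, the form known to prevail in brain, was at 0.299 and 0.344 of Eif4e in +/+ and was not called (log2 0.17 ± 0.23), and the rare Eif4ebp3, at 0.704 to 1.39 CPM in +/+ somatodendritic libraries, rose by 1.34 ± 0.42 (adjusted p = 0.0135). Eif4enif1, the eIF4E transporter of P-bodies, fell by 0.79 (SE 0.15, adjusted p = 0.000687) and by 0.72 (SE 0.15) in Hnrnpr-/-.

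Of the 3 subunits of the eIF2 trimer, 2 rose and none fell in +/+, and 1 rose and 1 fell in Hnrnpr-/-. The shares of all genes that rose and fell were 30.1% and 27.4% in +/+ and 27.5% and 26.8% in Hnrnpr-/-. Eif2s1, the alpha subunit that the stress kinases phosphorylate, was at 52.8, 69.8, 94.2 and 79.7 CPM in +/+ somatodendritic and at 111, 141, 193 and 163 CPM in +/+ axonal libraries, groups that did not overlap. It rose by 1.04 ± 0.24 (adjusted p = 0.00213) and by 0.81 ± 0.24 (adjusted p = 0.0104) in Hnrnpr-/-. Eif2s2, the beta subunit, rose by 0.65 ± 0.19 (adjusted p = 0.00916) in +/+ and was at 0.39 ± 0.19 (adjusted p = 0.0930) in Hnrnpr-/-. Eif2s3x, the X-linked gamma subunit that holds GTP and the initiator tRNA, was at -0.38 ± 0.18 (adjusted p = 0.0832, or 0.0394 with the culture as a block) in +/+ and fell by 0.52 (SE 0.18, adjusted p = 0.0257) in Hnrnpr-/-, a call lost with the scaling by library totals (-0.40, adjusted p = 0.0945), with no filter (0.0647), with protein-coding genes only (0.0507) and without Hnrnpr-/- axonal replicates 1, 3 or 4 or somatodendritic replicates 2 or 4 (adjusted p from 0.0541 to 0.09). In +/+ somatodendritic libraries the 3 subunits lay between 23.5 and 26.2 CPM per kb, with Eif2s3x the highest, and in +/+ axonal ones between 20.1 and 48.3, with Eif2s3x the lowest. Eif2a and Eif2d, which deliver initiator tRNA outside the trimer, were at 0.46 ± 0.20 and 0.10 ± 0.18 in +/+. Eif2a passed the test with the culture as a block (adjusted p = 0.0441 in +/+ and 0.0495 in Hnrnpr-/-), and 64 bp of its gene extent overlap the more abundant Serp1 on the opposite strand. The summed level of the 3 trimer subunits was 74.8 ± 13.8 CPM per kb (SD, n = 4) in +/+ somatodendritic and 108 ± 18.6 in +/+ axonal libraries, and 86.6 ± 11.7 and 106 ± 19.3 in Hnrnpr-/-, with overlapping ranges in both genotypes. Within cultures the axonal sum was the higher for every +/+ replicate. In Hnrnpr-/- it was the higher for replicates 1, 3 and 4 but not for replicate 2 (90.9 against 98.6 CPM per kb). The sums were not tested. The Y-linked copy of Eif2s3x, Eif2s3y, was at 8.23 to 29.7 CPM in both compartments of +/+ replicates 1 and 4 and of Hnrnpr-/- replicate 1, and at 0 to 0.414 CPM in the 10 other libraries.

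The regulators of eIF2 also moved in different directions. Of the 4 kinases that phosphorylate eIF2-alpha, Eif2ak2 (PKR, the sensor of double-stranded RNA) rose and the 3 others fell in +/+, against 30.1% and 27.4% of all genes. Eif2ak2 was at 3.8, 3.42, 6.13 and 4.69 CPM in +/+ somatodendritic and at 7.63, 19.4, 18.6 and 10.2 CPM in +/+ axonal libraries, and rose by 1.63 ± 0.35 (adjusted p = 0.00124). Eif2ak3 (PERK, the kinase of the endoplasmic reticulum) fell by 1.01 (SE 0.21, adjusted p = 0.00099), Eif2ak4 (GCN2, the sensor of amino acid shortage) by 0.81 (SE 0.22, adjusted p = 0.00616) and Eif2ak1 (HRI, the haem-regulated kinase) by 0.54 (SE 0.17, adjusted p = 0.0127). In Hnrnpr-/- the values of the 4 were 1.38, -0.86, -0.83 and -0.33, and Eif2ak1 was not called. The +/+ call of Eif2ak1 was lost without +/+ somatodendritic replicate 2 (adjusted p = 0.0507) and with library totals (0.0545), and its gene extent overlaps Aimp2 on the opposite strand. Of the 5 subunits of eIF2B, which recharges eIF2 with GTP, Eif2b2 rose by 1.27 ± 0.17 (adjusted p = 5.80e-05), whereas Eif2b1, Eif2b3, Eif2b4 and Eif2b5 were at 0.35, 0.25, -0.02 and -0.08 and not called in +/+. Eif2b1 rose in Hnrnpr-/- (0.64 ± 0.17).

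Among the factors of start-site selection and subunit joining, 5 of 8 rose and none fell in either genotype. Of all genes 30.1% rose and 27.4% fell in +/+, and 27.5% and 26.8% in Hnrnpr-/-. Eif6, which keeps the large subunit from joining too early, was the highest of them at 1.48 ± 0.21 in +/+ (adjusted p = 9.11e-05), followed by Eif1ad, Eif5, Eif5b and Eif1 at 1.02, 0.86, 0.75 and 0.65. The counts of Eif1ad and Eif5b hold a limit: their gene extents overlap Banf1 and Rev1 on the opposite strand, and the kit does not mark strand, so reads of the overlap cannot be assigned. In Hnrnpr-/- the increase of Eif5 (0.56 ± 0.22) was lost without axonal replicates 2 or 3 or somatodendritic replicates 1 or 4 of that genotype (adjusted p from 0.057 to 0.0963) and without axonal replicate 3 of both genotypes (0.136), and that of Eif5b (0.52 ± 0.17) without somatodendritic replicate 4 (0.0555). Eif4a3, the helicase of the exon junction complex rather than of eIF4F, rose by 0.87 ± 0.18.

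Elongation factor eEF2 and the enzymes acting on eEF1A and eEF2 gave a mixed picture. Eef2 was at 745, 743, 759 and 626 CPM in +/+ somatodendritic and at 890, 765, 1101 and 816 CPM in +/+ axonal libraries, with 0.31 ± 0.14 (adjusted p = 0.0632) in +/+ and an increase of 0.43 ± 0.14 (adjusted p = 0.0161) in Hnrnpr-/-. Its inhibitory kinase Eef2k fell by 0.76 in +/+ (SE 0.28, adjusted p = 0.0314), where +/+ axonal replicate 2 was at 13.7 CPM and the other 3 between 32.9 and 47.5 CPM. The call was lost with library totals (adjusted p = 0.0849), with no filter on low counts (0.0533), with only the compared groups fitted (0.0888) and in 7 of 16 fits that each left out 1 library, namely any +/+ somatodendritic replicate, +/+ axonal replicate 3 and Hnrnpr-/- somatodendritic replicates 1 and 2 (adjusted p from 0.0504 to 0.0926). The methyltransferase genes Eef1akmt4 and Eef2kmt rose by 2.85 ± 0.46 and 1.58 ± 0.24, but Eef1akmt4 overlaps the readthrough gene Eef1akmt4-ece2 on the same strand over 7269 bp, which in turn overlaps Camk2n2 on the opposite strand, and Eef2kmt overlaps Alg1 on the opposite strand, so both are uncertain.

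The 9 textbook TOP mRNAs among the factors, Eef1a1, Eef1b2, Eef1d, Eef1g, Eef2, Eif3e, Eif3f, Eif3h and Eif4b, lay at a median of 0.68 (log2 fold change) in +/+ and 0.83 in Hnrnpr-/-, against 0.35 and 0.36 for the 59 other factors. Of the 9, 7 rose in +/+ and 8 in Hnrnpr-/-, against 30.1% and 27.5% of all genes, and Eif4b, at -0.25 and -0.23, was the only 1 below 0. Eef1a1, Eef1b2, Eef1g, Eif3e, Eif3f and Eif3h have exon lengths of at most 1933 bp. They fall in the shortest class described below, where all genes had a median of 0.79 in +/+, above the 0.68 of the TOP mRNAs. The called factors also differed in transcript length. The 34 factors that were higher in +/+ axonal libraries had a median exon length of 1585 bp (895 to 7797 bp), the 11 lower ones 5530 bp (2804 to 10641 bp), and the 23 others 3235 bp. Across the 68 factors Spearman's rho of exon length and log2 fold change was -0.63, and across the 15378 protein-coding genes tested it was -0.38. These are correlations across genes of the same libraries, and genes are not independent replicates. With all protein-coding genes tested divided into 4 equal classes of exon length, in the shortest class, up to 2337 bp, 54.6% of genes were higher and 8.66% lower in +/+ axonal libraries and the median was 0.79, and the 29 factors of that class had a median of 0.87, with 24 higher and 0 lower. In the next class, up to 3848 bp, 30.5% of all genes were higher and 24.1% lower with a median of 0.13, and of 18 factors 7 were higher and 1 lower with a median of 0.34. In the class up to 6294 bp 38.4% of all genes and 6 of 11 factors were lower and 19.9% and 1 factor were higher, and the medians were -0.31 for all genes and -0.76 for the factors. In the longest class 48.4% of all genes and 4 of 10 factors were lower and 14.9% and 2 factors were higher, and the medians were -0.62 for all genes and -0.26 for the factors. The number of PCR cycles also differed between the compartments, and its part in the relation with length was not tested.

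**Figure D4:**
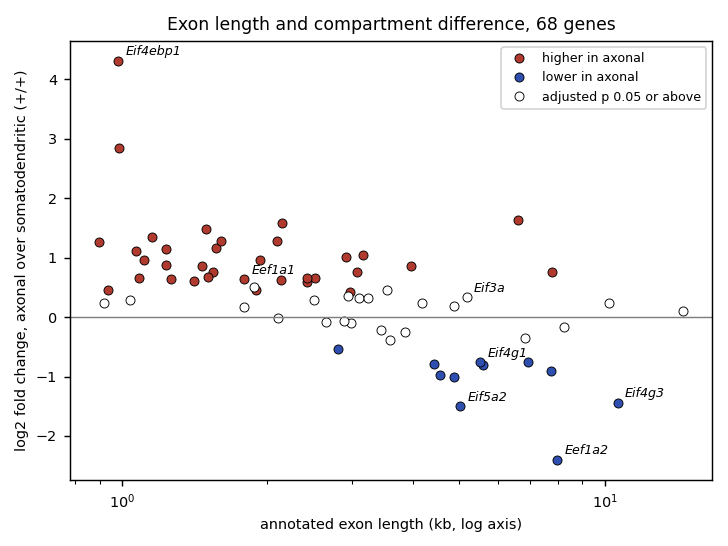
Annotated exon length (kb, log axis) against the log2 fold change between +/+ axonal and somatodendritic libraries for the 68 tested factors. Red points were called higher, blue points lower and open points neither. The called factors of the shortest class (up to 2337 bp) are all higher, and the eIF4G genes, Eif5a2 and Eef1a2 lie among the longer, lower ones.

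The 36 further genes of the pathway that are not factors by name, a list chosen with earlier results of these data known, held 8 that rose and 14 that fell in +/+, and 7 and 16 in Hnrnpr-/-, against the 30.1% and 27.4% and the 27.5% and 26.8% of all genes. Their medians were -0.16 and -0.20. Mtor and Rptor, the kinase and the scaffold of the mTOR complex that phosphorylates 4E-BP1, were 4.22-fold and 2.83-fold lower (log2 SE 0.25 and 0.23). Larp1, the protein that binds TOP mRNAs, fell by 0.59 (SE 0.17), and Gcn1, the activator of GCN2, by 1.57 (SE 0.25). Ogt and Oga, the enzymes that add and remove O-GlcNAc, fell by 0.95 (SE 0.24) and 1.61 (SE 0.36), with Ogt at 267 to 340 CPM in +/+ somatodendritic and 118 to 204 CPM in +/+ axonal libraries. Cyfip2 was 5.65-fold lower (log2 SE 0.37) while its paralogue Cyfip1, which binds eIF4E as part of the FMRP complex, rose by 0.95 (SE 0.19). Tpt1, a TOP mRNA, rose by 1.53 (SE 0.25), and Pabpc1, the poly(A)-binding protein, was at 0.53 ± 0.23 (adjusted p = 0.0645).

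Loss of hnRNP R was compared within each compartment, which asks whether the levels of the factors' own mRNAs differ without hnRNP R. In the axonal compartment 0 of 68 factors passed the adjusted test and 0 had an unadjusted p below 0.05 with edgeR, against 0.01% and 3.88% of all genes. The unadjusted count was 3 without +/+ axonal replicate 3 (Eef1d, Eif4a1 and Eif4e2), 2 without +/+ axonal replicate 1 (Eif3a and Eif5b) and 1 without Hnrnpr-/- axonal replicate 1 (Eef1aknmt). With the axonal libraries fitted alone, 0 factors and only 0.723% of all genes had an unadjusted p below 0.05 (edgeR). In the fit of all 4 groups the log2 fold changes ran from -0.36 to 0.31 with a median of 0.08, against 0.02 for all genes. That median rested on single libraries: it was -0.02 without Hnrnpr-/- axonal replicate 3, 0.17 without +/+ axonal replicate 3, 0.04 and 0.03 without +/+ axonal replicates 1 and 2, and 0.12 without Hnrnpr-/- axonal replicate 1. Among the nuclear RNAs, Malat1 and Kcnq1ot1 were at -1.14 ± 0.41 and -1.08 ± 0.45 between axonal genotypes (unadjusted p = 0.0136 and 0.0282, adjusted p = 1, edgeR), and their part in the factors' values was not tested. In the somatodendritic compartment 0 passed the adjusted test (0.00501% of all genes, Hnrnpr alone) and 1 had an unadjusted p below 0.05, against 0.601% of all genes. DESeq2 gave 0 adjusted calls in both compartments.

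The factor with the smallest p in the somatodendritic compartment was Eef1akmt3, an eEF1A lysine methyltransferase, at 0.302, 0.27, 0.248 and 0.188 CPM in +/+ and 0.659, 0.736, 0.503 and 0.429 CPM in Hnrnpr-/-. These groups did not overlap (1.58% of all genes did not), but the libraries held only 3.5 to 17 counts of it, its gene extent overlaps Mettl1 on the opposite strand, and the log2 difference of 1.18 ± 0.39 had an adjusted p of 1 (unadjusted 0.00864, edgeR). Eef1a2, at 42.1 to 49.3 CPM in +/+ and 35.1 to 39.5 CPM in Hnrnpr-/- somatodendritic libraries, was the other factor without overlap, with a log2 difference of -0.30 ± 0.60. That error is shared with the axonal libraries, where Eef1a2 ranged from 1.26 to 26 CPM. Fitted on the 8 somatodendritic libraries alone the difference was -0.29 ± 0.10 (unadjusted p = 0.0161, adjusted p = 0.999, edgeR), and 3 factors, Eef1akmt3, Eef1a2 and Eif4ebp3, had an unadjusted p below 0.05, against 2.62% of all genes in that fit, with 0 passing the adjusted test. In the fit of all 4 groups (edgeR) the next smallest unadjusted p-values of the somatodendritic compartment were 0.108 for Eif2s3x (0.31 ± 0.18) and 0.123 for Eif4ebp3 (-0.70 ± 0.43). The Y-linked Eif2s3y was present in somatodendritic replicates 1 and 4 of +/+ but only in replicate 1 of Hnrnpr-/-, and its part in the Eif2s3x value was not tested. In axons the smallest unadjusted p-values were 0.131 for Eef1akmt2 (-0.27 ± 0.17), 0.146 for Eef1aknmt (0.31 ± 0.20) and 0.151 for Eif5b (-0.25 ± 0.17), all with overlapping groups (0.606% of all genes did not overlap).

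A p above the threshold does not show that the genotypes were alike, so the intervals were read. The fit of all 4 groups shares 1 dispersion per gene between the compartments, while the common dispersion was 0.275 in axonal and 0.0499 in somatodendritic libraries when each was fitted alone, so the intervals of each compartment fitted alone are given too. With the shared dispersion, in axons the 95% interval of the difference lay within a 2-fold change in either direction for 65 of 68 factors, the exceptions being Eef1a2, Eif4ebp1 and Eif4ebp3, and within a 1.5-fold change for 44. For the 35 eIF2, eIF3, eIF4 and eEF1 genes these numbers were 34 and 28 in axons, and 34 and 30 in the somatodendritic compartment. With the axonal libraries fitted alone, the interval lay within a 2-fold change for 60 of 68 factors and within a 1.5-fold change for 23. With the somatodendritic libraries alone these numbers were 66 and 56. For the 35 eIF2, eIF3, eIF4 and eEF1 genes they were 33 and 15 in axons and 35 and 32 in the somatodendritic compartment. The median standard error of the 68 factors was then 0.23 in axons and 0.12 in the somatodendritic compartment. For the scaffold Eif4g1 the axonal difference was 0.16, with a 95% interval from -0.17 to 0.48, and the somatodendritic one -0.10, from -0.43 to 0.23. Fitted alone, these intervals of Eif4g1 ran from -0.26 to 0.58 in axons and from -0.35 to 0.18 in the somatodendritic compartment. With the shared dispersion, in axons Eif4e was at -0.07 (-0.43 to 0.30), Eif4a1 at 0.20 (-0.27 to 0.68), Eif2s1 at -0.02 (-0.52 to 0.49), Eif3c at 0.15 (-0.15 to 0.45) and Eef2 at 0.10 (-0.20 to 0.39). With the axonal libraries alone these intervals widened to -0.59 to 0.45 for Eif4e, -0.45 to 0.85 for Eif4a1, -0.62 to 0.59 for Eif2s1, -0.28 to 0.58 for Eif3c and -0.34 to 0.53 for Eef2. Ogt and Pabpc1 were at -0.04 ± 0.24 and -0.06 ± 0.23. Of the 36 pathway genes 0 passed the adjusted test in axons, and Paip1, which binds the poly(A)-binding protein, was the only 1 with an unadjusted p below 0.05 (-1.08 ± 0.40, unadjusted p = 0.0156, adjusted p = 1, edgeR).

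**Figure D5:**
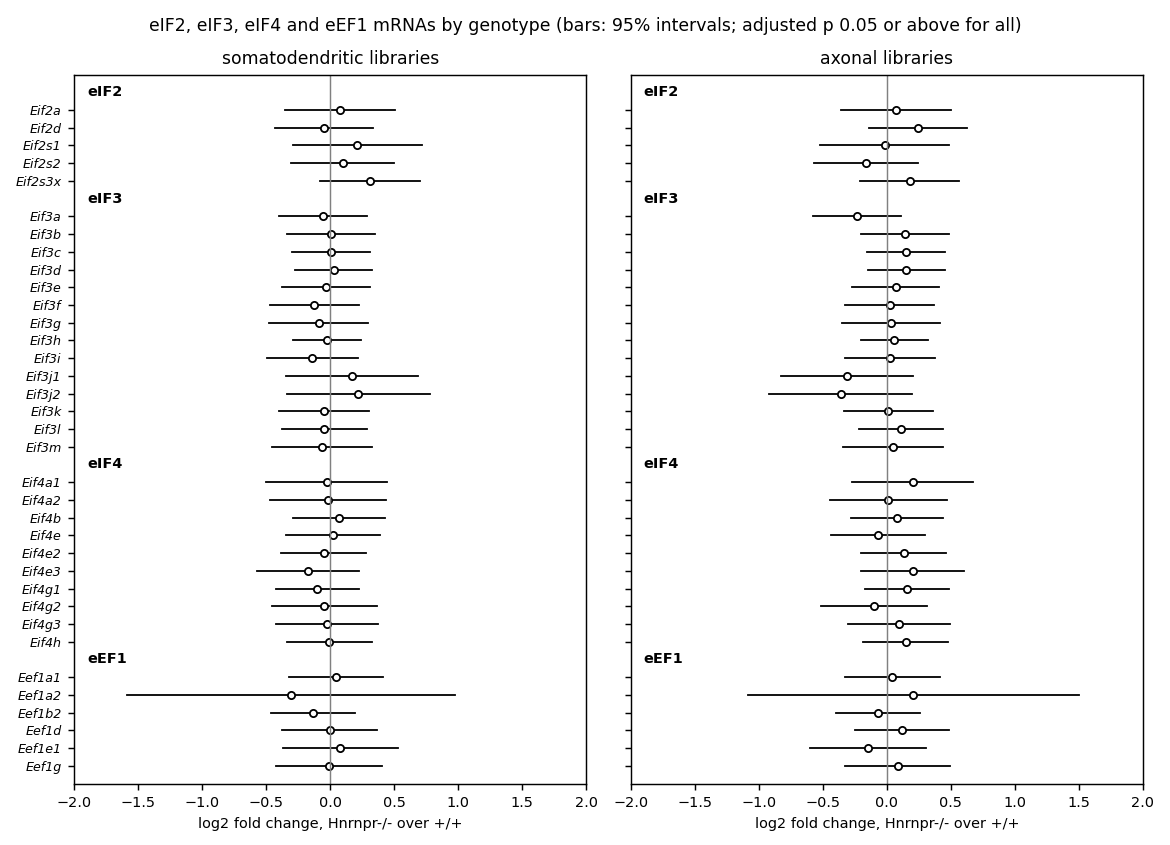
Log2 difference between Hnrnpr-/- and +/+ libraries (x axis) with 95% intervals for the 35 tested eIF2, eIF3, eIF4 and eEF1 genes in the somatodendritic (left) and axonal (right) compartment. The intervals use the dispersion shared by both compartments. All hold 0, and that of Eef1a2 is the widest in both compartments.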

How the data were processed

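RNA of 16 libraries was made into cDNA with the SMART-Seq v4 kit, which does not mark strand. According to the study's methods the authors trimmed reads with Cutadapt, mapped them with STAR 2.7.2b to the mouse genome GRCm39 and counted exon reads with featureCounts 1.6.4 against the RefSeq annotation, with the reverse-strand setting and with reads of several places or genes split into fractions. The deposited values are these expected counts per gene, with no normalization, for 46320 genes. Of the 71 factors, 67 have a fractional count in at least 1 library and 20 overlap a gene on the opposite strand. Pseudogene rows are counted apart.

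Counts were rounded, genes with low counts removed by group (filterByExpr, 19964 genes left), and the 4 groups fitted with edgeR 4.0.16 (TMM factors, quasi-likelihood test, R 4.3.3, Benjamini-Hochberg adjustment over all genes tested, threshold 0.05). Log2 fold changes carry the standard error and 95% interval of that fit. CPM are TMM-scaled, and CPM per kb divide by the length of all annotated exons of a gene, which understates genes with long rare isoforms. Paralogue ratios used log2(CPM + 0.5), so they depend on the scaling where a gene is low. The script was tested on simulated data. The common dispersion was 0.275 in axonal and 0.0499 in somatodendritic libraries when fitted apart, but the fit of 4 groups shares 1 dispersion per gene, so its errors do not show that difference. Gene lists and members were chosen with earlier results of these data known. Named were all eIF2, eIF3, eIF4 and eEF1 subunits, the 3 largest increases and decreases among the other factors, the smallest p-values between genotypes, the paralogue pairs and the factors not tested, and further members where their role group is described, chosen after their values were seen.

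Axonal and somatodendritic libraries of 1 genotype with the same number come from the same culture: they deviated together (Pearson's r over all genes 0.105 to 0.508), and Eif2s3y was present or absent in both. A fit with the culture as a block was therefore an alternative. Others were RLE and library-total scaling, other filters, fractional counts, DESeq2 1.42.0 and each library left out. Labels do not say whether replicates are separate animals, so p-values measure the spread between these samples.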

Additional observations from a re-analysis of the deposited data

Results flagged for a closer look

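Of 272 groups of 4 values (68 factors in 4 groups), 19 held a library far from the other 3 by Dixon's test, or 6.99%, and chance flags about 1 in 20. In +/+ somatodendritic libraries replicate 4 stood apart for 6 factors. It was high for Eif1 at 337 CPM, Eif4a1 at 384 CPM, Eif3m at 101 CPM and Eef1akmt2 at 24.9 CPM, and low for Eef2 at 626 CPM and Eif2b5 at 116 CPM. In the same group Eif2b2 was high at 45.3 CPM and Eif4h low at 352 CPM in replicate 3, and Eif4enif1 was low at 101 CPM in replicate 1. In +/+ axonal libraries replicate 3 was high for Eef1d at 224 CPM, Eif3g at 219 CPM and Eif3k at 110 CPM, replicate 2 was high for Eef1akmt2 at 41.2 CPM, and replicate 4 was low for Eif2b4 at 53.7 CPM. In Hnrnpr-/- axonal libraries replicate 3 was high for Eef2 at 1128 CPM and Eif3d at 274 CPM, and replicate 4 was low for Eif4enif1 at 50.4 CPM. In Hnrnpr-/- somatodendritic libraries replicate 1 was low for Eif2b2 at 34.3 CPM and high for Eif4g3 at 281 CPM. No factor's difference between compartments differed between genotypes by the interaction test.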

How the results depend on the processing

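The numbers of factors called between compartments stayed within 1.5 times of those given under all 29 alternatives, each library left out included (40 to 50 and 40 to 47): 40 to 51 in +/+ (30 to 40 higher, 9 to 12 lower) and 40 to 47 in Hnrnpr-/- (31 to 37 higher, 8 to 11 lower). Between genotypes and for the interaction the count was 0 throughout (at an unadjusted p below 0.05, 0 to 3 in axons, 1 to 3 in the somatodendritic compartment and 0 to 1 for the interaction). Of the 45 calls in +/+ 38 held under every alternative, as did 37 of the 43 in Hnrnpr-/-, and none changed direction. The median of the TOP mRNAs was 0.58 to 0.78 in +/+ and 0.78 to 0.90 in Hnrnpr-/- when single libraries were left out. With the culture as a replicate block the counts were 45 and 43, and Eif3b (0.0774), Eef1akmt1 (0.0508) and Eif4h in Hnrnpr-/- (0.0574) lost their calls, while Eif2a in both genotypes (0.0441 and 0.0495) and Eif2s3x in +/+ (0.0394) gained one. It changed no other call. With the replicate number as a block across genotypes the counts were 48 and 45. Whether a number marks a shared batch across genotypes is not given in the labels, and the study's methods name a common batch of cells for the conditions compared without tying numbers to it: r between genotypes ran from -0.046 to 0.677 for the same number, and 3 of 8 +/+ libraries correlated best with their own number. Scaling by library totals moved the median of all genes from 0.07 to 0.22 in +/+, and lowered the eIF4 sums of the somatodendritic groups to 736 CPM per kb in +/+ and 734 in Hnrnpr-/-, by more than 1 SD. The axonal eIF4 sums were then 731 and 785, so in Hnrnpr-/- the axonal mean came to lie above the somatodendritic one instead of below it. For uncalled values, the axonal genotype difference of Eif2s1 turned to 0.0056 with no filter and ranged from -0.17 to 0.13 when single libraries were left out, that of Eif4e from -0.19 to 0.0804, and the Eif1a to Eif1ax ratio in +/+ from -0.17 to 0.40. The cause was not tested. With each compartment fitted alone, the axonal interval between genotypes reached beyond a 1.5-fold change for 45 of 68 factors, against 24 with the shared dispersion, and the somatodendritic one for 12 against 18.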
